A study of Mus musculus with 15 samples.

Results

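Cultured mouse spermatogonial stem cells were compared 4 h and 2 h after their growth factors had been given back. The comparison used 6 of the 15 arrays of a time course, 3 titled as 4 h of replacement and 3 titled as 2 h of replacement. The cultures were enriched for stem cells from male C57BL/6 mice aged 6 days and kept in serum-free medium with GDNF, soluble GFRalpha1 and bFGF. Every replacement culture had first gone 18 h without GDNF and GFRalpha1, and then had both back for the stated time. The other groups, at 8 h of replacement, at the end of the 18 h of withdrawal, and in maintained culture with the factors throughout, had 3 arrays each and are used as context. Nothing in the labels ties the replicates to separate cultures. P-values therefore measure only how these arrays vary, and that variation may be technical. The labels name no culture that was kept without the factors beyond 18 h or handled alike without them. Effects of the added factors, of handling and of time since withdrawal cannot be told apart.

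GDNF binds GFRalpha1 and activates the receptor tyrosine kinase RET, whose signal passes through the RAS-ERK, PI3K-AKT and SRC-family kinase pathways. A growth factor first switches on immediate-early genes, which need no new protein and many of which encode short-lived transcription factors, and their products act on a later set of secondary response genes. Germ cell cultures of the testis also carry somatic cells, mainly fibroblast-like cells, whose transcripts are read on the same array.

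The germ cell identity of the cultures was clear at both times. Dazl, which encodes a germ cell RNA-binding protein, had a signal of 6812, 7637 and 7059 on the 4 h arrays, against 7303, 6406 and 6107 on the 2 h arrays. Ddx4, the germ cell helicase also called Vasa, had 1140.2, 1222 and 982 on the 4 h arrays, against 1178, 1351 and 1222 on the 2 h arrays. Signals are the MAS5 intensity, in arbitrary units, and all arrays shared the same trimmed mean. Across the 15 arrays the median signal lay between 42.5 and 55.8. A measure of RNA quality, the ratio of the 3′ to the 5′ probe set of beta-actin, was 1.12, 1.52 and 1.75 on the 4 h arrays, against 1.10, 1.14 and 1.28 on the 2 h arrays, and a higher ratio means that 5′ ends were less well represented.

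Many more transcripts were higher than lower at 4 h. Of 13083 genes tested, 221 rose (1.69%) and 33 fell (0.252%) between 2 h and 4 h in limma's test at an adjusted p under 0.05, 1.94% in all. Of these, 96 rose and 2 fell by at least 2-fold. All 254 called genes had 4 h and 2 h arrays that did not overlap, which was also true of 10.7% of all genes tested in the upward direction and 9.28% in the downward direction, 19.9% together. In the same fit, 2 h of replacement against withdrawal called 15 genes higher (0.115%) and 0 lower, 4 h against withdrawal called 227 higher and 119 lower (1.74% and 0.91%), and 8 h against 4 h called 0 in either direction. These comparisons share arrays with each other.

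The count of called genes depended on single arrays. It was 709 without 4 h array 1, 100 without 4 h array 2, 46 without 4 h array 3, 174 without 2 h array 1, 111 without 2 h array 2 and 63 without 2 h array 3. Of the called genes, 42 rises and 2 falls were called in all 6 of these fits. Array 1 was the 4 h array nearest to the 2 h mean for 162 of the 221 rises and for 22 of the 33 falls. It was also the 4 h array with the lowest beta-actin ratio, 1.12, and the part of RNA quality in these differences was not tested.

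Of the 25 gene lists, the fibroblast list held the most rises. All 25 fibroblast markers tested, of 28 listed, were higher on each 4 h array than on any 2 h array, against 10.7% of all genes tested. Of the 25, 16 passed the test, against 1.69% of all genes. The median log2 difference of the 25 was 1.16, a 2.23-fold rise, against -0.01 for all genes tested, and single markers ranged from 0.56 to 1.74. Col3a1, which encodes the chain of type III collagen, had 3517, 2983 and 3453 on the 4 h arrays, against 1296, 1184 and 611 on the 2 h arrays (log2 difference 1.74, limma adjusted p 0.0021). Dcn, the small proteoglycan decorin, had 814, 705 and 899 on the 4 h arrays, against 492, 318 and 191 on the 2 h arrays (1.32, adjusted p 0.0053). Lox, which cross-links collagen, rose by 1.43 and Postn, a matrix protein of activated fibroblasts, by 1.50. Vim, the intermediate filament vimentin, rose by 0.99 with an adjusted p of 0.041 and was called in 1 of the 6 fits that leave out an array, the one without 2 h array 1. The other probe sets of Vim rose by 1.30 and 1.13. Both were called when all probe sets passing the filter were tested (limma adjusted p 0.010 and 0.020). Fn1, fibronectin, had 3584, 2896 and 3664 on the 4 h arrays, against 2669, 2438 and 1686 on the 2 h arrays, and did not pass the test (0.59, adjusted p 0.132; second probe set -0.20). In RNA from a whole culture, more cells of a type and more RNA per cell cannot be told apart.

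The summed signal of the 25 fibroblast markers was 26665, 22614 and 27536 on the 4 h arrays, against 14055, 12808 and 8429 on the 2 h arrays. The 2 sets of arrays do not overlap, and 2 h array 3 had the lowest sum of the whole series. On the maintained arrays the sum was 17943, 13111 and 14933, on the withdrawal arrays 12765, 12574 and 20322, and on the 8 h arrays 21778, 27617 and 23961. Of 15 germ cell markers tested, 0 were called, 12 had a negative difference and the median was -0.11. Their summed signal, to which Dazl contributed the most, was 15974, 16409 and 15431 on the 4 h arrays, against 15979, 16249 and 15564 on the 2 h arrays. The mean log2 level of the germ cell list was 8.91, 8.86 and 8.76 on the 4 h arrays, against 8.87, 9.07 and 8.98 on the 2 h arrays. The ratio of the fibroblast sum to the germ cell sum was 1.67, 1.38 and 1.78 on the 4 h arrays, against 0.880, 0.788 and 0.542 on the 2 h arrays. Withdrawal array 3 had a ratio of 1.67, in the range of the 4 h arrays, and the highest beta-actin ratio of all arrays, 2.77.

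**Figure D1:**
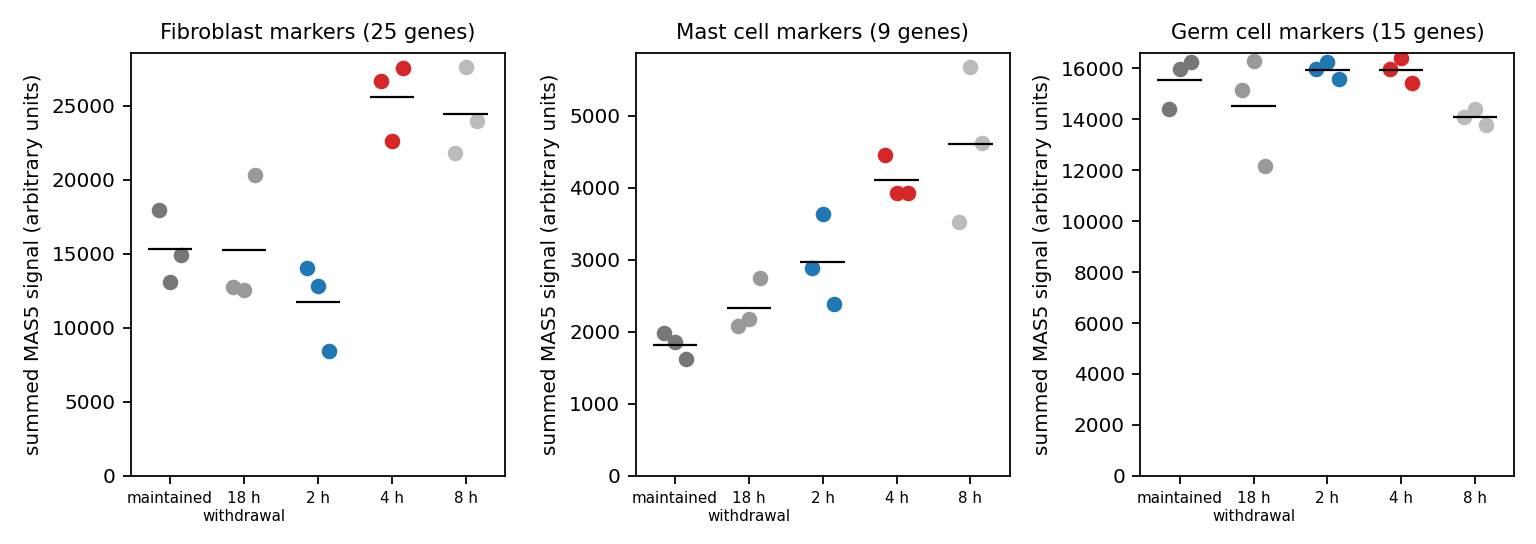
Summed MAS5 signal (arbitrary units) of the markers of 3 cell types on every array, by group in time order; points are arrays and lines are group means of 3 arrays. The fibroblast sum lies between 22614 and 27536 on the 4 h arrays (red), above the 8429 to 14055 of the 2 h arrays (blue), while the germ cell sums of these groups overlap.

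Markers of other cell types had smaller median differences. All 9 mast cell markers tested had a positive difference, with a median of 0.41, but none passed the test (0 called, and 5 at an unadjusted p under 0.05, against 8.24% of all genes in that direction). Their summed signal was 4454, 3925 and 3925 on the 4 h arrays, against 2888, 3640 and 2387 on the 2 h arrays. Cpa3, the mast cell carboxypeptidase, had 1064, 1242 and 1353 on the 4 h arrays, against 869, 977 and 562 on the 2 h arrays (log2 difference 0.62, adjusted p 0.107), and Cma1, a chymase, differed by 0.64 (adjusted p 0.092). The 5 Leydig and peritubular markers tested had a median difference of 0.43 and 0 calls, with a summed signal of 607, 565 and 731 on the 4 h arrays, against 589, 419 and 387 on the 2 h arrays. Of these, Cyp11a1, which makes pregnenolone from cholesterol, had 159, 96.8 and 159 on the 4 h arrays, against 83.7, 61.0 and 35.3 on the 2 h arrays (adjusted p 0.071). Among 12 Sertoli cell markers the median was 0.07 and 1 rose, against 1.69% of all genes. It was Rhox5, a homeobox gene that Sertoli cells express in response to androgen (0.85, adjusted p 0.025, called in 2 of the 6 fits that leave out an array). Gdnf, Cst9, Amh and Cldn11 of that list were below a signal of 30.5, the limit of the filter on dim probe sets, on all 6 arrays, as were Tie1, Vwf and Cd52 of the endothelial and blood list. The 9 endothelial and blood markers tested had a median of -0.03 and 0 calls, with a summed signal of 603, 583 and 697 on the 4 h arrays, against 841, 564.5 and 588 on the 2 h arrays.

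Several immediate-early transcription factors were already high at 2 h. Egr1, a zinc finger factor induced by ERK, had 3733, 3577 and 3589 on the 4 h arrays, against 5355, 4657 and 4442 on the 2 h arrays. All 3 of the 4 h arrays lay below all 3 of the 2 h arrays, but the log2 difference of -0.40 (95% interval -0.71 to -0.10) did not pass the test after adjustment (adjusted p 0.188). Against withdrawal cultures, where Egr1 averaged 1448 ± 270 (SD, n = 3), its log2 difference was 1.33 at 4 h and 1.73 at 2 h. Ier2, a nuclear immediate-early protein, had 430.3, 344.5 and 406.5 on the 4 h arrays, against 526, 507 and 601 on the 2 h arrays, again without overlap (-0.45, interval -0.74 to -0.17, adjusted p 0.103). Junb, a subunit of the AP-1 factor, had 216, 194 and 228 on the 4 h arrays, against 246, 247 and 258 on the 2 h arrays (-0.22, adjusted p 0.451). In withdrawal cultures Ier2 averaged 218.9 ± 27.6 and Junb 112 ± 18.4 (SD, n = 3), below every array of both times. Egr4 of the same family as Egr1 had 1276, 671 and 828 on the 4 h arrays, against 1434, 1516 and 1114 on the 2 h arrays, and its groups overlapped (-0.58, adjusted p 0.130).

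Other immediate-early genes showed no common direction. Fos, the AP-1 subunit, had 624, 805 and 1103 on the 4 h arrays, against 1002, 919 and 779 on the 2 h arrays, with a log2 difference of -0.12 (interval -0.55 to 0.31). Egr2 had 695, 1126 and 960 on the 4 h arrays, against 616, 693 and 934.5 on the 2 h arrays (0.30, adjusted p 0.489; second probe set -0.17). Egr3, Fosb, Atf3, Myc and Klf2 had log2 differences of -0.20, 0.25, 0.22, 0.41 and -0.23, none of them called. The second probe set of Egr3 differed by 0.39. Of the 24 immediate-early factors tested, 3 rose and 0 fell, against 1.69% and 0.252% of all genes, 14 had a positive and 10 a negative difference, and the median was 0.13. Zfp36, which destabilises AU-rich mRNAs, and Trib1, a pseudokinase, belonged to a second early list of mRNA decay factors and kinases, in which 0 of 15 were called and the median was -0.05.

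The 3 immediate-early factors that rose were Ier3, Fosl2 and Klf4. Ier3, which prolongs ERK signalling and protects from apoptosis, had 768, 734 and 669.5 on the 4 h arrays, against 417, 470.1 and 462 on the 2 h arrays. Its arrays were far apart, the rise was 1.59-fold (log2 0.67, SE 0.12, adjusted p 0.0087), and it was called in all 6 fits that leave out an array. Fosl2, another AP-1 subunit, had 227, 303 and 448 on the 4 h arrays, against 139, 133 and 125 on the 2 h arrays (1.16, adjusted p 0.016). A second probe set of Fosl2 had a difference of -0.14, and the call was lost without 4 h array 2 or 3 or 2 h array 2 or 3 (adjusted p up to 0.124). Klf4, a zinc finger factor with roles in pluripotency and differentiation, rose by 0.72 (adjusted p 0.027), its second probe set differed by 0.03, and the call was lost without the same arrays (adjusted p up to 0.144).

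Delayed response genes held 3 rises, of which Bhlhe40 was the largest. Bhlhe40, a basic helix-loop-helix repressor induced late by growth factors and by hypoxia, had 337, 502 and 435 on the 4 h arrays, against 102, 84.0 and 129 on the 2 h arrays. Every 4 h array was more than 2-fold above every 2 h array, and the rise of 3.64-fold (log2 1.86, SE 0.17, adjusted p 3.9e-05) had the smallest p-value of all genes tested. Its 2 h level was near the 97.4 ± 18.5 of withdrawal cultures, its maintained level was 489.8 ± 28.8 and its 8 h level 329 ± 4.1 (SD, n = 3 each). Plaur, the urokinase receptor, had 241, 240.4 and 230.3 on the 4 h arrays, against 94.9, 110.3 and 141 on the 2 h arrays (1.95-fold, log2 0.96, SE 0.16, adjusted p 0.0045). It too was near its withdrawal level of 98.0 ± 6.83 at 2 h and near its maintained level of 214.5 ± 9.92 at 4 h. Phlda1, a pleckstrin homology domain protein, had 582.5, 642 and 635 on the 4 h arrays, against 444, 368 and 432 on the 2 h arrays (0.57, adjusted p 0.048). The rise of Phlda1 was called in 1 of the 6 fits that leave out an array, the one without 4 h array 1.

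Of the 22 delayed genes tested, these 3 rose and 0 fell, against 1.69% and 0.252% of all genes. The list's median was 0.30, with 16 positive and 6 negative differences. Epha2, a receptor tyrosine kinase of the list, had 259, 245.4 and 173 on the 4 h arrays, against 122, 122 and 226 on the 2 h arrays, and its groups overlapped (0.52, adjusted p 0.451). Hmga2, a chromatin protein that marks proliferating progenitors, lay just outside the threshold, at 453, 433 and 572 on the 4 h arrays, against 382, 250.3 and 227.5 on the 2 h arrays (0.75, adjusted p 0.051).

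The 250 bases before the RefSeq start of Ier3, Plaur, Klf4, Fosl2 and Junb are printed as examples. Junb was already high at 2 h and alone stands for the earlier timing. The others were called higher at 4 h than at 2 h, but the second probe sets of Klf4 and Fosl2 were not called. The regions do not stand for genes of either timing as a set. The build is GRCm38.p6. The regions are chr17:35821463-35821712 for Ier3, chr7:24462233-24462482 for Plaur and chr5:32136222-32136471 for Fosl2, all on the plus strand. Those on the minus strand are chr4:55532476-55532725 for Klf4 and chr8:84978749-84978998 for Junb. Capitals mark TGACTCA, the AP-1 motif, in Plaur and CACGTG, an E-box that Bhlhe40 can bind, in Klf4.
Ier3: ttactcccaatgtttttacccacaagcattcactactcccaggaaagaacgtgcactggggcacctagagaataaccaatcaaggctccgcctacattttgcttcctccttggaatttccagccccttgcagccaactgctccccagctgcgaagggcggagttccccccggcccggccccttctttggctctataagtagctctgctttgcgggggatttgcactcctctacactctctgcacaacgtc
Plaur: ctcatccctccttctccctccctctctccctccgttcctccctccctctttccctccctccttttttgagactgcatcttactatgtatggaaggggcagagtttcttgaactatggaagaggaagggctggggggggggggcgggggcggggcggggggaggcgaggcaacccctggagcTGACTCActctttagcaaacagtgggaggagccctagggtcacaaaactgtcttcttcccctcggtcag
Klf4: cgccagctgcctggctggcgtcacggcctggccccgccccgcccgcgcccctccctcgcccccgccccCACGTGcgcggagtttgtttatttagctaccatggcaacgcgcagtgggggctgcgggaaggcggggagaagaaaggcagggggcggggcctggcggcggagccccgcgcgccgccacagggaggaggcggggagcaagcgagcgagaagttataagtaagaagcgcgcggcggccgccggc
Fosl2: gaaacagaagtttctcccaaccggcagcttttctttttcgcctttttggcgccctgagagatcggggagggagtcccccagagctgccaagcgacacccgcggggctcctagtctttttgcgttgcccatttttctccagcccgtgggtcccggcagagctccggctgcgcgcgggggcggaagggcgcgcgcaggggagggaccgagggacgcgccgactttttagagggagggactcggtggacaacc
Junb: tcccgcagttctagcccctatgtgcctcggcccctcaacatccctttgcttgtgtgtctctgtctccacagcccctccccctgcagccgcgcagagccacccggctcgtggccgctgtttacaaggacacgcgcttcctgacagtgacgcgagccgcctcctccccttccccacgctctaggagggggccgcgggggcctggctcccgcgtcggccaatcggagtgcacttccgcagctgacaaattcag
Each region was searched on both strands for TGACTCA, for CACGTG and for the cAMP response element TGACGTCA. The region of Plaur held TGACTCA 69 bases before the start, that of Klf4 held CACGTG 182 bases before the start, and those of Ier3, Fosl2 and Junb held none of these letters. Among 32851 promoter regions of this length, 4.46% held TGACTCA, 6.02% CACGTG and 1.55% TGACGTCA. A match describes letters in a window and not a site in use.

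**Figure D2:**
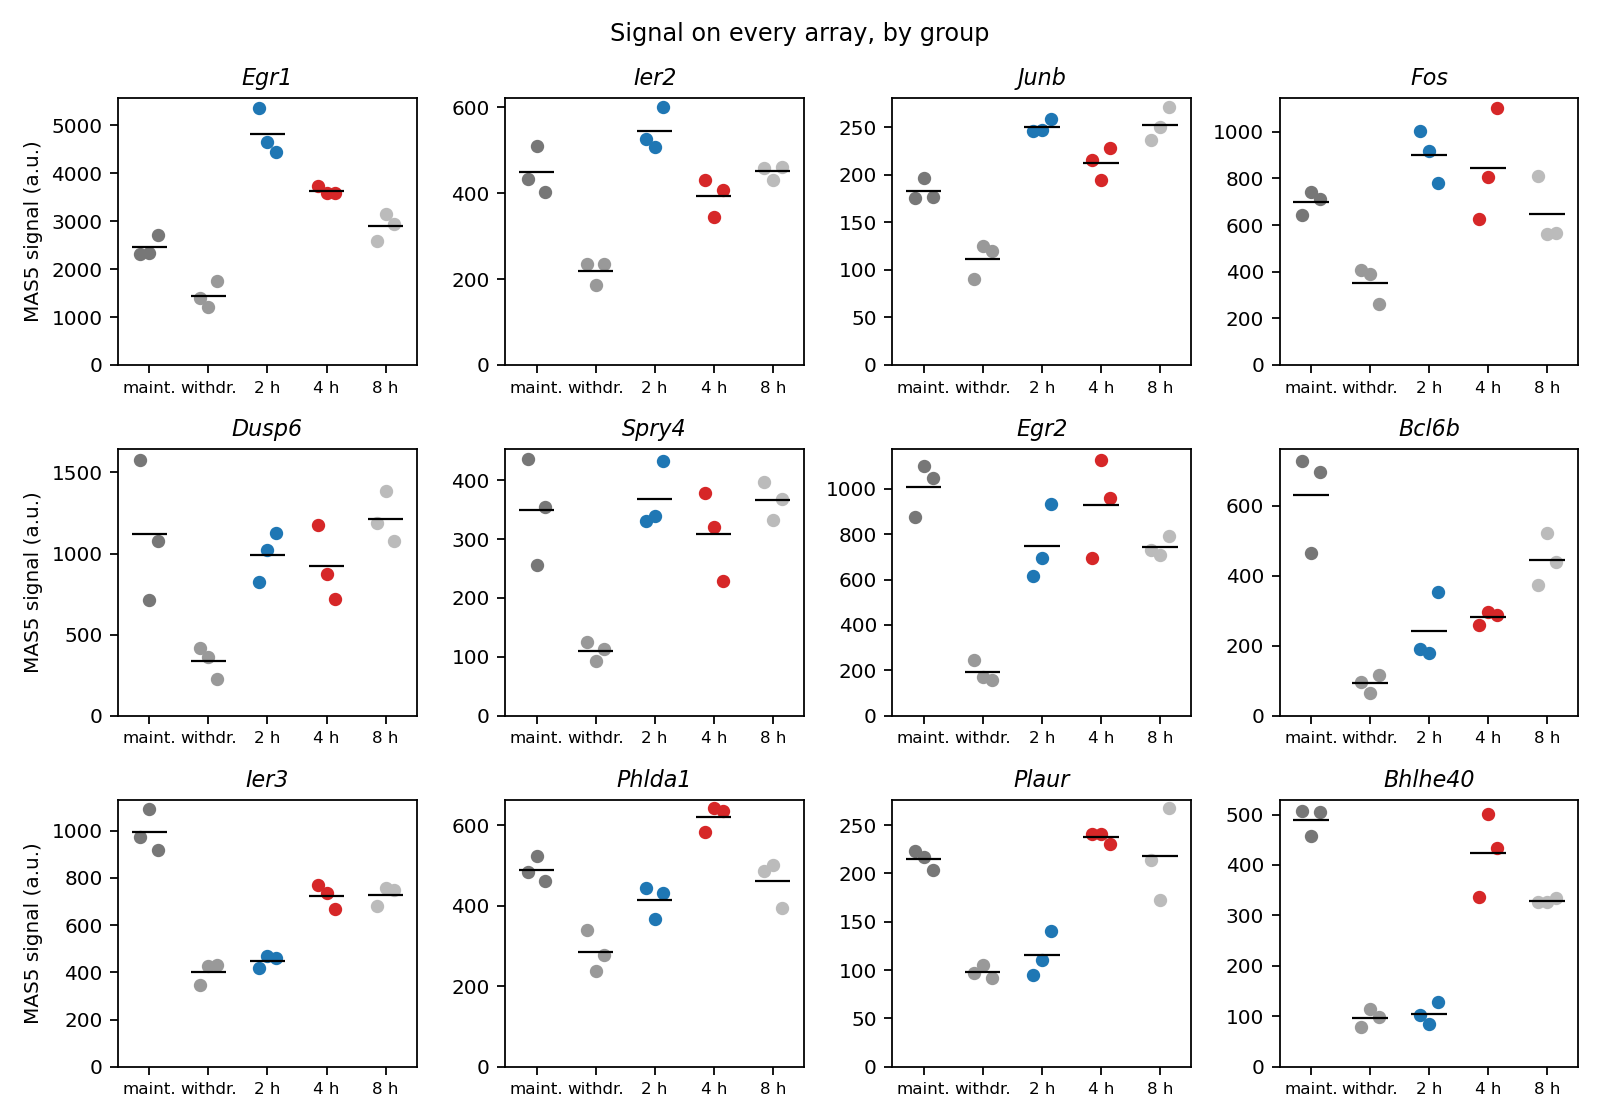
MAS5 signal (arbitrary units) of 12 genes on every array in the 5 groups, in time order; points are arrays and lines are means of 3 arrays. Egr1, Ier2 and Junb lie lower at 4 h (red) than at 2 h (blue) without passing the test, while Ier3, Phlda1, Plaur and Bhlhe40 rise at 4 h.

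Feedback regulators of ERK, which are induced by the pathway they restrain, were not called in either direction (0 of 19, median 0.21). Dusp6, the phosphatase that inactivates ERK, had 1178, 877 and 719.8 on the 4 h arrays, against 827, 1024 and 1126 on the 2 h arrays, a log2 difference of -0.12 with an interval of -0.66 to 0.42. Both times lay above the withdrawal mean of 338 ± 98.0 (SD, n = 3). Spry4, a Sprouty inhibitor of the pathway, had 377.5, 321 and 229 on the 4 h arrays, against 331, 339.7 and 433 on the 2 h arrays (-0.26, adjusted p 0.577), and its other probe sets ranged from -0.23 to 0.44. Spry2 had 303, 697 and 476 on the 4 h arrays, against 320.2, 255 and 373 on the 2 h arrays (0.55, adjusted p 0.320). Spread among the 4 h arrays exceeded the difference between the groups for Dusp6, Spry4 and Spry2.

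Genes that earlier work named as GDNF targets in these cells, a list that drew on these arrays, gave 0 calls of 8 and a median of 0.28. Bcl6b, a repressor needed for stem cell maintenance, had 259, 296 and 288.5 on the 4 h arrays, against 189.9, 180.2 and 353 on the 2 h arrays (0.27, adjusted p 0.637). Lhx1, Cxcr4 and Pou3f1 of this list had log2 differences of 0.38, 0.51 and 0.52, none called. Id4, which belongs to the list of undifferentiated spermatogonia instead, differed by 0.29 and was not called either. These genes encode 3 nuclear regulators and, in Cxcr4, a chemokine receptor. Pou3f1, as 1 of the 8, and Id4 were higher on every 4 h array than on any 2 h array, as were 10.7% of all genes tested. Pou3f1 had 283, 335 and 396 on the 4 h arrays, against 231, 222 and 233 on the 2 h arrays (adjusted p 0.118). A second probe set of Pou3f1 differed by -0.40, and the others of Id4 differed by 0.04 and 0.19. Etv5, an ETS factor required for spermatogonial self-renewal, differed by -0.11. Its relative Etv4, which like Id4 belongs to the list of undifferentiated spermatogonia, differed by -0.43. Etv4 had 306, 171.5 and 121 on the 4 h arrays, against 242, 201 and 349 on the 2 h arrays.

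Markers of undifferentiated spermatogonia had 1 fall and 0 rises among 28 tested, against 0.252% and 1.69% of all genes, with a median of -0.08. The gene was Neurog3, a basic helix-loop-helix factor that marks spermatogonia on the way to differentiation, at 176, 82.7 and 169 on the 4 h arrays, against 285, 352 and 196 on the 2 h arrays. The fall was 1.89-fold (log2 -0.91, SE 0.23, adjusted p 0.047), and it was called in 2 of the 6 fits that leave out an array, those without 4 h array 1 and without 2 h array 3. Ret, the GDNF receptor kinase, had 757, 369 and 278 on the 4 h arrays, against 921, 919 and 889 on the 2 h arrays. All 4 h arrays lay below the 2 h arrays, but array 1 stood well above arrays 2 and 3, the test was not passed (-1.06, adjusted p 0.131), and a second Ret probe set differed by -0.04. Gfra1 and Zbtb16, the co-receptor and a zinc finger factor of stem cells, differed by -0.22 and -0.01. Other probe sets differed by -0.33 and -0.69 for Gfra1 and by 0.05 and -0.40 for Zbtb16. Among 15 markers of differentiating spermatogonia and 11 of meiotic and haploid cells there were 0 calls, with medians of -0.18 and -0.12, and Kit and Stra8 differed by 0.10 and -0.59. Some genes stood in more than 1 list. Kitl was in the lists of differentiating spermatogonia and of Sertoli cells, and Thy1 in those of undifferentiated spermatogonia and of fibroblasts.

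Growth and division genes were not called. Ribosome biogenesis genes, many of them targets of MYC, had 26 negative and 5 positive differences among 31 tested, with a median of -0.27, and 10 had an unadjusted p under 0.05 in the downward direction, against 6.83% of all genes. Dkc1, the pseudouridine synthase dyskerin, had 799.7, 856.5 and 826 on the 4 h arrays, against 1131, 1026 and 1087 on the 2 h arrays (-0.38, adjusted p 0.111). Cad, which starts pyrimidine synthesis, had 1309, 610.5 and 733 on the 4 h arrays, against 1486, 1495 and 1526 on the 2 h arrays (-0.83, adjusted p 0.096). Over the ribosome biogenesis list, the median difference of single 4 h arrays from the 2 h mean was -0.05 for array 1, -0.39 for array 2 and -0.36 for array 3, and the beta-actin ratios of those arrays were 1.12, 1.52 and 1.75. In lists of G1/S genes and G2/M genes, 0 of 26 and 0 of 22 were called, with medians of -0.04 and -0.12. Pcna and Ccnd1, a replication clamp and a cyclin, differed by 0.03 and 0.10. Cholesterol synthesis genes had 0 calls of 20 and a median of 0.15, with Hmgcs1, the HMG-CoA synthase of the pathway, at 8199, 10172 and 9018 on the 4 h arrays, against 6820, 6358 and 8056 on the 2 h arrays (0.37, adjusted p 0.369), and 4 other probe sets between -0.77 and 0.39.

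Stress lists held several rises. Adm, the vasodilator peptide adrenomedullin and a hypoxia target, had 192, 157 and 252 on the 4 h arrays, against 58.9, 73.4 and 86.1 on the 2 h arrays (2.42-fold, adjusted p 0.0033), and a second probe set rose by 2.02. Ankrd37, another hypoxia-induced gene, had 263, 275 and 235 on the 4 h arrays, against 96.6, 150.5 and 157 on the 2 h arrays (1.85-fold, adjusted p 0.0079). In withdrawal cultures Adm averaged 126 ± 18.7 and Ankrd37 195.6 ± 5.82, and in maintained cultures 278 ± 40.9 and 467.5 ± 4.01 (SD, n = 3). Both were called in all 6 fits that leave out an array, and they were the 2 that rose of 19 heat shock and hypoxia genes (median 0.07), against 1.69% of all genes. Pgk1, a glycolytic enzyme and hypoxia target, had 4759.9, 6742 and 5894 on the 4 h arrays, against 3143, 2866 and 3503 on the 2 h arrays (0.86, adjusted p 0.119).

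Of 16 p53 and apoptosis genes, 3 rose and 1 fell, against 1.69% and 0.252% of all genes, with a median of -0.03. Cdkn1a, which encodes the cell cycle inhibitor p21 and is also a FOXO target, had 1074, 1305 and 1252 on the 4 h arrays, against 592, 563 and 484.5 on the 2 h arrays (2.18-fold, adjusted p 0.0038). It was called in all 6 fits that leave out an array. Zmat3, an RNA-binding p53 target, rose by 1.30 and lost the call without 4 h array 3 or 2 h array 3, while Ccng1, cyclin G1, rose by 1.03 and was called in 2 of the 6 such fits. The other probe sets of Ccng1 differed by 0.12 and 0.42. Bik, a BH3-only protein, was the fall (-0.90), called in 0 of the 6 fits that leave out an array. Its other probe sets differed by -0.66 and -1.16. The larger of these falls was itself called when all probe sets passing the filter were tested (limma adjusted p 0.012). Vldlr, a lipoprotein receptor of the ATF4 list, rose by 1.39 (adjusted p 0.0067), the 1 call of 23. Ifit1 of the interferon list rose by 1.01 (adjusted p 0.048), the 1 call of 11. Both counts stand against 1.69% of all genes called higher, and the medians of these lists were 0.04 and 0.07. Without 4 h array 3 the call of Vldlr was lost (adjusted p 0.064), and Ifit1 was called in 2 of the 6 fits. The other probe sets of Vldlr differed by 0.44 to 1.21.

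**Figure D3:**
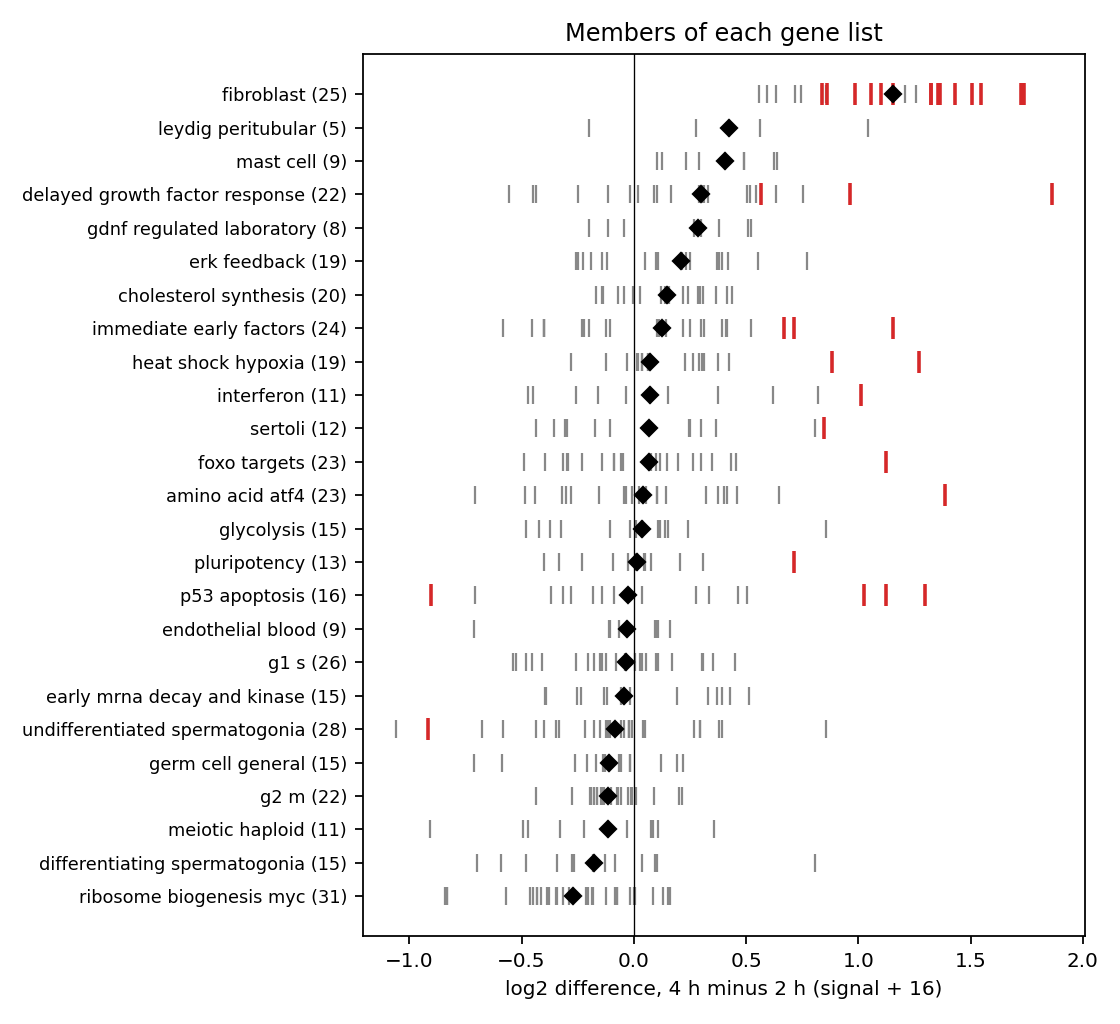
Log2 differences, 4 h minus 2 h, of the members of 25 gene lists, sorted by median; ticks are genes (red where called at an adjusted p under 0.05), diamonds are medians and brackets give the number tested. The fibroblast list stands at a median of 1.16, and the other medians lie between -0.27 and 0.43.

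The 12 largest rises were Cdc42ep2, Bhlhe40, Snai2, Col3a1, Timp3, S100a4, Gbp6, Rbm43, Efemp1, Cc2d2a, Ptn and Emilin1, from 1.88 to 1.62 on the log2 scale. Cdc42ep2, an effector of the small GTPase CDC42, had 118, 121 and 123 on the 4 h arrays, against 23.8, 20.5 and 19.0 on the 2 h arrays (adjusted p 0.0037). Its 2 h signals were under 30.5, so the fold depends on the constant of 16 added before the logarithm. S100a4, a calcium-binding protein of fibroblasts, had 2061, 2902 and 3479 on the 4 h arrays, against 1018, 856 and 632 on the 2 h arrays (1.73, adjusted p 0.0087), with the call lost without 4 h array 3 or 2 h array 3. Ptn, the secreted growth factor pleiotrophin, had 1226, 1047 and 1474 on the 4 h arrays, against 422, 474 and 276 on the 2 h arrays (1.66, adjusted p 0.0037), and its other probe sets differed by 1.86 and 0.13. Timp3, an inhibitor of metalloproteinases, rose by 1.73, with 3 other probe sets between 0.35 and 0.82. Snai2, a factor of mesenchymal cells, was called in 1 of the 6 fits that leave out an array, the one without 4 h array 1, and its 4 h signals of 60.1, 129 and 209 were widely spread.

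The falls were smaller. The 12 largest were B3gnt5, Zbtb42, Zfp941, Neurog3, Bik, Acvr2b, Bend3, Ccsap, Gfm2, P2rx6, Faap24 and Stk35, from -1.15 to -0.79. Second probe sets of Zfp941, Acvr2b and Stk35 differed by -0.50, -0.60 and -0.76, but that of Gfm2 by 0.26. Acvr2b, a receptor for activins, had 464, 306 and 298 on the 4 h arrays, against 698, 581 and 704 on the 2 h arrays (-0.89, adjusted p 0.014), and it was called without 4 h array 1 and without 2 h array 2. Bend3, a chromatin repressor, had 125, 149.5 and 168 on the 4 h arrays, against 298, 264 and 286 on the 2 h arrays (-0.87, adjusted p 0.0062). Bend3 and Arrdc3 were the 2 falls called in all 6 fits that leave out an array. Arrdc3, an arrestin-like protein involved in receptor turnover, was singled out after its values were seen, at 243, 243 and 255 on the 4 h arrays, against 467, 437 and 387 on the 2 h arrays (-0.76, adjusted p 0.0037). When the arrays were scaled to 1 mean of the germ cell list, 249 genes were called higher and 3 lower. The median of all genes was then 0.12 instead of -0.01, and the call of Bend3 was lost (adjusted p 0.057).

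**Figure D4:**
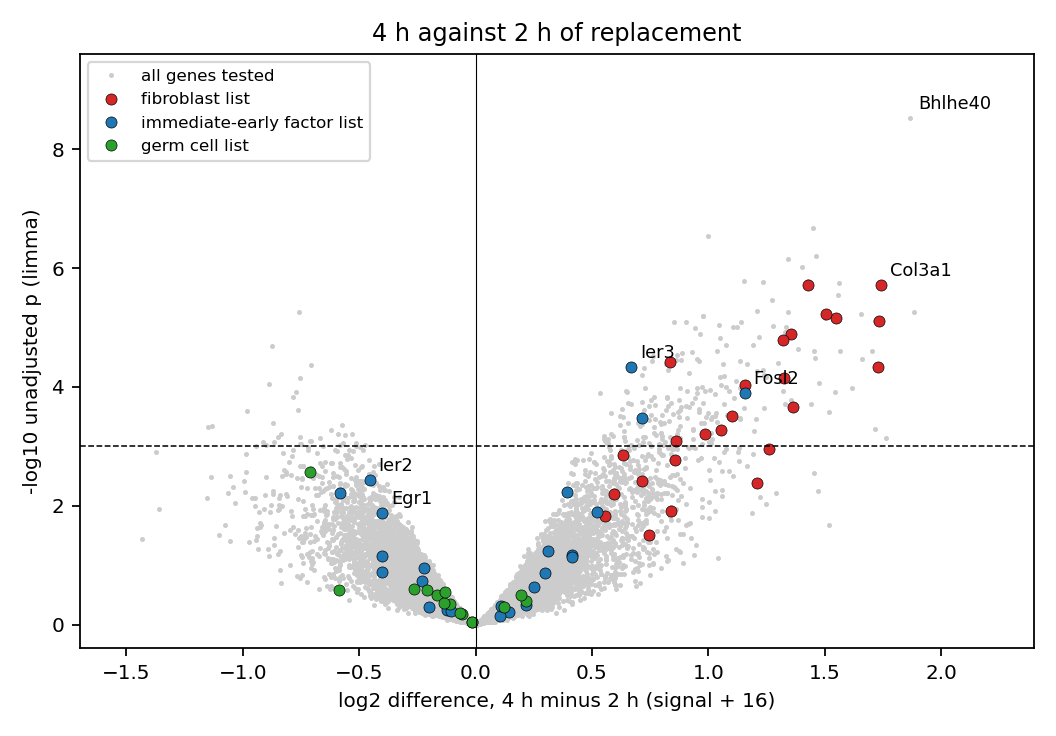
Log2 difference, 4 h minus 2 h, against the unadjusted p-value (-log10 scale) for all 13083 genes tested, with the fibroblast, immediate-early factor and germ cell lists in colour; genes above the dashed line had an adjusted p under 0.05. Fibroblast markers lie on the right, Bhlhe40 has the smallest p, and Egr1 and Ier2 lie left of 0 below the line.

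A fit that also held the level of fibroblast transcripts made no calls. When the mean log2 level of the fibroblast list on each array was added to the fit as a covariate, 0 genes were called in limma's test (smallest adjusted p 0.099), and 1604 had an unadjusted p under 0.05, 6.21% of all genes upward and 6.05% downward. The covariate itself differed between the 4 h and 2 h arrays, and the median standard error over all genes was 0.36 with it and 0.19 without it. Its slope was fitted from the spread within groups over all 15 arrays. Withdrawal array 3 stood apart at 8.98, against 8.34 and 8.26, as did 2 h array 3 at 7.79, against 8.44 and 8.30. Withdrawal array 3 also had a beta-actin ratio of 2.77. Differences with the covariate may therefore mix in RNA quality, which was not tested. The median of the 221 rises was 0.45 with the covariate and 0.96 without it, and 194 of the 221 kept a positive difference. The median of the 33 falls was -0.91 with the covariate and -0.75 without it, and 33 of the 33 stayed negative. Col3a1, Timp3, Ptn, S100a4 and Snai2 had differences of 0.28, 0.16, 0.16, 0.26 and 0.09 with the covariate. Col3a1, Timp3 and S100a4 are members of the list whose mean is the covariate, which takes up their difference by construction. Bhlhe40, Plaur, Adm, Ankrd37 and Ier3 had 2.07, 1.41, 1.68, 1.07 and 0.66, while Fosl2 had 0.22 and Cdkn1a 0.40. Neurog3 had -1.51, Bend3 -1.24 and Egr1 -0.92.

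Of the 42 rises called in all 6 fits that leave out an array, 7 belonged to the fibroblast list and 35 did not. With the covariate, 20 of the 42 had an unadjusted p under 0.05 upward, against 6.21% of all genes. The 42 had been picked for their rise on the same arrays, so the shares are not alike. Of the 20, 0 were from the fibroblast list, which the covariate takes up by construction, so this 0 does not set the list apart. The 5 named next are among the 35 and were singled out after their values were seen. Cebpd, a C/EBP transcription factor of the delayed response to cytokines, had 262, 381 and 369 on the 4 h arrays, against 139, 82.7 and 91.6 on the 2 h arrays (1.56, adjusted p 0.0021, and 1.02 with the covariate), and its second probe set differed by 1.12. Mgst1, a microsomal glutathione transferase, had 385, 517 and 588 on the 4 h arrays, against 174, 190.3 and 146 on the 2 h arrays (1.45, adjusted p 0.0013, and 1.29 with the covariate). Marcks, a substrate of protein kinase C, had 418.5, 608 and 557 on the 4 h arrays, against 220.2, 275 and 189 on the 2 h arrays (1.15, adjusted p 0.0021, and 1.08 with the covariate). Its 6 other probe sets ranged from -0.05 to 1.52. Elk3, an ETS factor controlled by ERK, rose by 1.10 and Col4a5, a basement membrane collagen, by 1.46, while the second probe set of Elk3 differed by -0.11 and that of Col4a5 by 0.43.

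**Figure D5:**
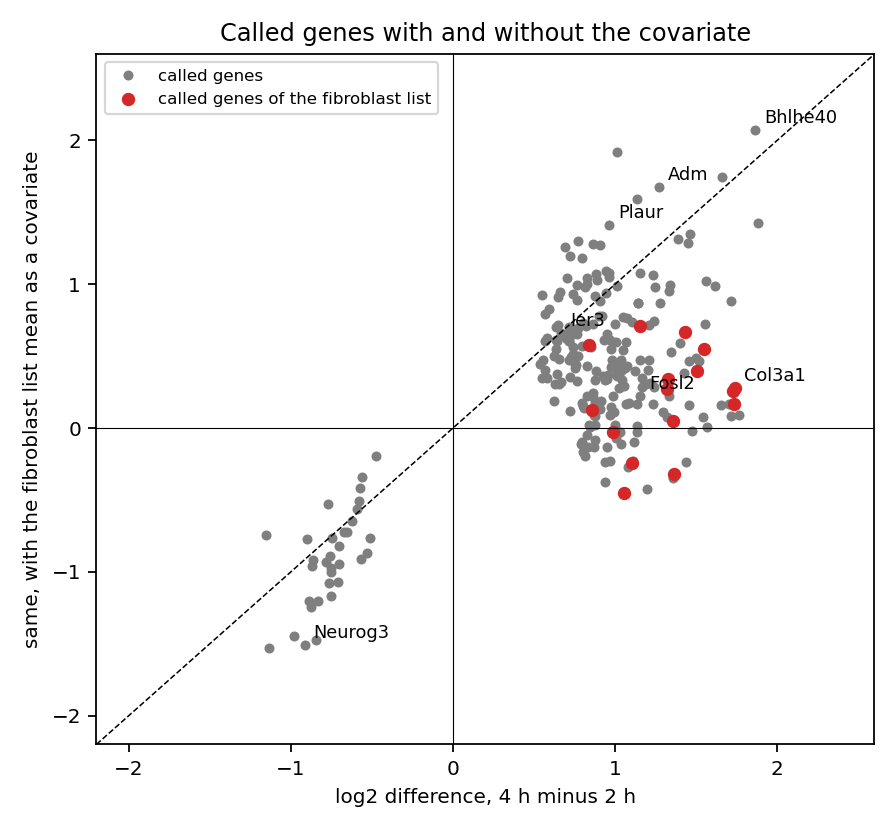
Log2 differences, 4 h minus 2 h, of the 254 called genes without (x axis) and with (y axis) the fibroblast list mean as a covariate; the dashed line marks equal values. Called genes of the fibroblast list (red), whose own mean is the covariate, lie below the dashed line. Bhlhe40, Plaur and Adm lie above the dashed line, and the falls stay below 0.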

How the data were processed

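RNA was measured on single-colour Affymetrix arrays, 1 per sample, in 5 groups of 3. The authors deposited a linear intensity, the MAS5 signal, for 45101 probe sets, per the submitters' processing notes, which name no version. The mean after trimming 2% at each end was 150 on every array, and 10 single values of the 6 arrays compared were 0. Probe sets were named from the platform annotation (34958 with 1 symbol, 932 with several, 9211 with none), and 64 control probe sets were left out.

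Signals were taken as log2(signal + 16). The dimmest 40% of probe sets (under a signal of about 30.5) were dropped, and each gene was its probe set with the highest mean, which gave 13083 genes. Of 114 called rises with further probe sets, 96 had them all in the same direction, as had 10 of 13 falls. All 5 groups were fitted in limma 3.58.1 (R 4.3.3; lmFit, eBayes with trend, 10 residual degrees of freedom), two-sided, with Benjamini-Hochberg adjustment over all genes, and the script was tested on simulated data. The number of arrays limits the precision. With 3 arrays against 3, an exact rank test could not go below p = 0.1, so none was used. Same-numbered 4 h and 2 h arrays had correlations of deviations of 0.04, -0.09 and -0.10, and differently numbered ones had -0.17 to 0.23. No shared effect of the numbers was seen, so the main fit treats the arrays as unpaired. These values cannot show whether the cultures were paired.

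The members and the 25 gene lists (489 entries, 29 not matched on the array) were chosen with earlier results of these data known, so no list was tested. Named genes were the 12 largest rises and falls among called genes whose arrays did not overlap, a fixed set of early, GDNF-related and spermatogonial genes, up to 4 members of each list by unadjusted p, and the 4 brightest of each somatic list. Alternatives covered the constant, filter, normalization, array weights, variance trend, arrays fitted, probe set choice, a replicate block, a fibroblast covariate and each array left out.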

Additional observations from a re-analysis of the deposited data

How the results depend on the processing

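The count of 254 called genes was 153 with no filter on dim probe sets (18193 genes tested), 1251 with array weights (736 higher and 515 lower) and 0 with the fibroblast covariate, where 1604 genes had an unadjusted p under 0.05. Leaving out 1 array gave between 46 called genes (without 4 h array 3) and 709 (without 4 h array 1). With the replicate block, that is, the replicate number as a term in the fit, 236 genes were called, and whether the numbers pair the arrays is not known. The other settings gave 195 to 266. Rises were 87.0% of the calls, and 98.8% when arrays were scaled to 1 mean of the germ cell list. That alternative was chosen after seeing the data, and in it the median of all genes was 0.12 instead of -0.01. The same shift gave 8 lists whose medians had been negative a positive one, from 0.01 for the G2/M and meiotic lists to 0.10 for p53 and apoptosis. The fibroblast list median of 1.16 was 0.046 with the covariate, whose values are that list's own mean, and 0.96 to 1.31 under every other alternative run. The difference of Vim was -0.030 with the covariate. Of the 41 called genes named by rule, 13 were called under all 18 alternatives other than the covariate, and 28 lost the call under at least 1. Of the 105 named genes not called, 37 were called under some alternative. The cause of these changes was not tested, except that the covariate takes up the fibroblast list by construction and leaving out an array reduces the samples.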

Other observations

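The genes named here lie outside the fibroblast list and were chosen because they were called, after their values were seen. Cxcl12, the chemokine ligand of CXCR4, had 656, 657 and 722.5 on the 4 h arrays, against 307, 308 and 180.0 on the 2 h arrays, a log2 difference of 1.34 (limma adjusted p 0.0018), called in all 6 fits that leave out an array, but its second probe set differed by 0.14. Csf1, a macrophage growth factor, had 368, 333 and 448 on the 4 h arrays, against 231.5, 199 and 145 on the 2 h arrays (0.95, adjusted p 0.016), and its call was lost without 4 h array 3 or 2 h array 3. The other probe sets of Csf1 differed by -0.26, 0.14 and 0.52. Ccl2, a monocyte chemokine, rose by 1.08, Osmr, the oncostatin M receptor, by 1.23, and Nrp1, a co-receptor for semaphorins and VEGF, by 1.33. The second probe set of Osmr differed by 0.16, and the others of Nrp1 by 0.41 to 0.97. With the fibroblast covariate these genes had differences of 0.53 for Cxcl12, -0.13 for Csf1, 0.43 for Ccl2, 0.16 for Osmr and 0.96 for Nrp1. The call of Ccl2 was lost without 4 h array 3, and that of Osmr without 4 h array 3 or 2 h array 3.

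Jag1, a Notch ligand, had 523, 921 and 812 on the 4 h arrays, against 379.9, 304 and 385 on the 2 h arrays (1.01, adjusted p 0.044), but its second probe set differed by -0.29. Its difference with the covariate was 1.92, and its call held in 1 of the 6 fits that leave out an array. Ppp1r15a, a stress-induced phosphatase subunit, fell, with 414.5, 367 and 343 on the 4 h arrays, against 649.7, 604 and 606 on the 2 h arrays (-0.71, adjusted p 0.0083), and the call was lost without 4 h array 3.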
